A study of Homo sapiens with 12 samples.

Results

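The 9 genes described here encode the MHC class I heavy chains HLA-B, HLA-C, HLA-E and HLA-F, their shared light chain B2M, and 4 proteins that supply or load the peptide, namely TAP1, TAP2, TAPBP and PSMB9. They were taken by symbol from a table of 26485 genes, all 9 passed the filter on low counts, and 14732 genes were tested in all. Their transcripts were followed in spheroids grown from DU145, a human prostate cancer cell line. All 3 lines carry a Crispr/Cas9 edit of ITGA2, the gene of the collagen-binding integrin α2 chain, and no unedited line was analysed here. DU145KO is the edited line, which had been picked by GFP and checked for loss of surface α2. DU145KO+α2 was made from it by stable transfection of an α2 cDNA in the pAWneo2 vector, and DU145KO+vector by transfection of the empty vector, and both transfected lines were kept in geneticin. Each transfected line is 1 stable line, so its 4 replicates are not separate transfections. Spheroids were seeded with 8000 cells, kept in serum-free medium for 72 h, and 4 samples of each line were sequenced, 12 in all.

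MHC class I molecules display peptides from inside the cell to CD8 T cells, and natural killer cells also read them. The proteasome, in which PSMB9 replaces a constitutive subunit after interferon, cuts proteins into peptides. TAP1 and TAP2 together pump these into the endoplasmic reticulum, and tapasin (TAPBP) bridges the pump and the empty heavy chain until a peptide fits. MHC class II molecules display peptides from the endocytic route to CD4 T cells and are switched on by CIITA, while its relative NLRC5 drives class I genes. The class II genes are therefore a natural comparison within the same samples.

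The total count per sample was 13948734 to 19988111, and no replicates of a line were close enough in their counts to be the same library. ITGA2 served as the check of the labels. It gave 21.2, 20.2, 25.8 and 15.7 CPM (reads per 1000000 reads of the library, normalized by TMM) in the 4 DU145KO samples, 18.8, 18.2, 20.2 and 13.0 in DU145KO+vector, and 301, 328, 332 and 259 in DU145KO+α2. The count covers the transfected cDNA and does not show the edit itself. DU145KO and DU145KO+vector overlapped, so ITGA2 checks the label of DU145KO+α2 and cannot tell the labels of those lines apart. Of 6 epithelial markers all were counted, while PTPRC, CD3E, MS4A1 and CSF1R of 8 leukocyte markers never exceeded 3 counts in a sample, nor did COL3A1, DCN and LUM of 6 stromal markers.

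Replicate 1 of DU145KO had the highest value of its line for 8 of the 9 members. Replicate 4 of DU145KO was lowest for 7 and replicate 4 of DU145KO+vector for 8. Samples with the same number deviated together in all lines, so a second fit took the replicate number as a block. Its values are given for members where they change a call, and for the other lists as counts or for some genes. The block also raised the number of all genes called in either direction (adjusted p below 0.05). Of 14732 genes tested it called 3911 for DU145KO+α2 against DU145KO+vector, 3286 for DU145KO+α2 against DU145KO and 1980 for DU145KO+vector against DU145KO.

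All members but B2M lie in the MHC on chromosome 6 and B2M on chromosome 15 (GRCh38, GENCODE gene spans). HLA-F is at chr6:29722775-29738528, HLA-E at chr6:30489509-30494194, HLA-C at chr6:31268749-31272130 and HLA-B at chr6:31353872-31367067. TAP2 is at chr6:32821833-32838739, TAP1 at chr6:32845209-32853816, PSMB9 at chr6:32844136-32859851 and TAPBP at chr6:33299694-33314284. B2M is at chr15:44711358-44718851. The transcripts varied together over the samples, as given further on, so the DNA just before the start sites of 5 of them is shown, which lets the light chain, a pair of heavy chains and the paired genes TAP1 and PSMB9 be compared. These are the 250 bases before the RefSeq start (GRCh38.p14), 5′ to 3′ on the strand of the gene, with capitals for matches on either strand to GAAANNGAA (the core of an interferon response element), TTCNNNGAA (a STAT-type site), CCAAT (bound by NF-Y) or TGACG (bound by CREB and ATF proteins).
B2M, chr15:44711267-44711516, plus strand: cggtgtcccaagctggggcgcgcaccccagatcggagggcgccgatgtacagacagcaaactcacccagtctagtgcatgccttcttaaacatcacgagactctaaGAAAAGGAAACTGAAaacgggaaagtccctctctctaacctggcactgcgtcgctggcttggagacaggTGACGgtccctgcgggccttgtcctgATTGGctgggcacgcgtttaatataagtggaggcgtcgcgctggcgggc
HLA-B, chr6:31357180-31357429, minus strand: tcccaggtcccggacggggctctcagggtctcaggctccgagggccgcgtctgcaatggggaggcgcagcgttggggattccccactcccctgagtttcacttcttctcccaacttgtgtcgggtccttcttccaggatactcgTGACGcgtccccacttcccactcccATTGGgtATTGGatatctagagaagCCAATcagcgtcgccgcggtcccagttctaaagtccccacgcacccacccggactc
HLA-C, chr6:31272093-31272342, minus strand: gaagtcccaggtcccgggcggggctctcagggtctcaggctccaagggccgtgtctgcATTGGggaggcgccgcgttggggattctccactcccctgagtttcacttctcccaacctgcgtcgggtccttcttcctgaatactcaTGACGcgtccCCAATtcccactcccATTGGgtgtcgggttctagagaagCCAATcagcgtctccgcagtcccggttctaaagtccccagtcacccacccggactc
TAP1, chr6:32853705-32853954, minus strand: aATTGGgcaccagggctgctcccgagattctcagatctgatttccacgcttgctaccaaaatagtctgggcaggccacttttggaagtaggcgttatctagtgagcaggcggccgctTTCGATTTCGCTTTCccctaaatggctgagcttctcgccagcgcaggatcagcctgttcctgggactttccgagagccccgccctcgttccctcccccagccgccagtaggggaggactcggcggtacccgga
PSMB9, chr6:32853942-32854191, plus strand: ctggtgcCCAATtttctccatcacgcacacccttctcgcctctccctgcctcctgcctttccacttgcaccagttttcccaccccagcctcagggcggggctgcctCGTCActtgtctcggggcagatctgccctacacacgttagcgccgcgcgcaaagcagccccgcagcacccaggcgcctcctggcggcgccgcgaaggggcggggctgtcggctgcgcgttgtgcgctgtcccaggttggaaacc

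TAP1 and PSMB9 are read in opposite directions from start sites 487 bases apart, so their windows share 13 bases and the same CCAAT. Promoter entries were found for 8 of the 9 members. Of these, 5 (B2M, HLA-F, TAP1, TAP2 and TAPBP) held GAAANNGAA, compared with 8.41% of 27303 genes with an entry, and in B2M, TAP1 and TAPBP a pair of such matches overlapped. CCAAT was found before 6 members and 37.0% of all genes, TGACG before 5 members and 24.9%, and TTCNNNGAA before 1 member, TAP1 (its other listed start), and 8.09%. Of the 13 class II list genes with an entry, 12 held CCAAT, 5 held GAAANNGAA, 4 held TGACG and 2 held TTCNNNGAA. Such matches describe the letters of a window and not the binding of any factor. Only these exact strings were searched, so a window without a match is not shown to lack the element.

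Per length of the MANE Select transcript, the 9 genes spanned more than 2 orders of magnitude and kept the same order in all 3 lines. In DU145KO the level was 2525 ± 255 CPM per kb (SD, n = 4, as for all values that follow) for B2M, 462 ± 90.5 for HLA-B, 264 ± 44.1 for HLA-C and 102 ± 22.6 for HLA-E. TAPBP followed at 92.7 ± 13.4, HLA-F at 26.4 ± 6.48, TAP1 at 18.9 ± 2.42, TAP2 at 12.4 ± 1.90 and PSMB9 at 11.2 ± 3.79. The light chain was thus the most abundant of these transcripts and the interferon-inducible proteasome subunit the least. Within this order HLA-E and TAPBP, HLA-F and TAP1, and TAP2 and PSMB9 overlapped within 1 SD. In DU145KO+α2 the same genes ran from 1805 ± 281 CPM per kb for B2M to 3.45 ± 0.529 for PSMB9, and in DU145KO+vector from 2545 ± 351 to 5.62 ± 1.5. The RPKM values of the authors were not used for these levels, because the gene lengths they imply were a median of 6.99 times the length of the main transcript for 95 genes of the MHC, against 1.0 for the rest of chromosome 6. Reads from stretches that HLA genes share were dropped or assigned by the alignment, so levels and changes of single HLA genes remain uncertain between paralogs.

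**Figure D1:**
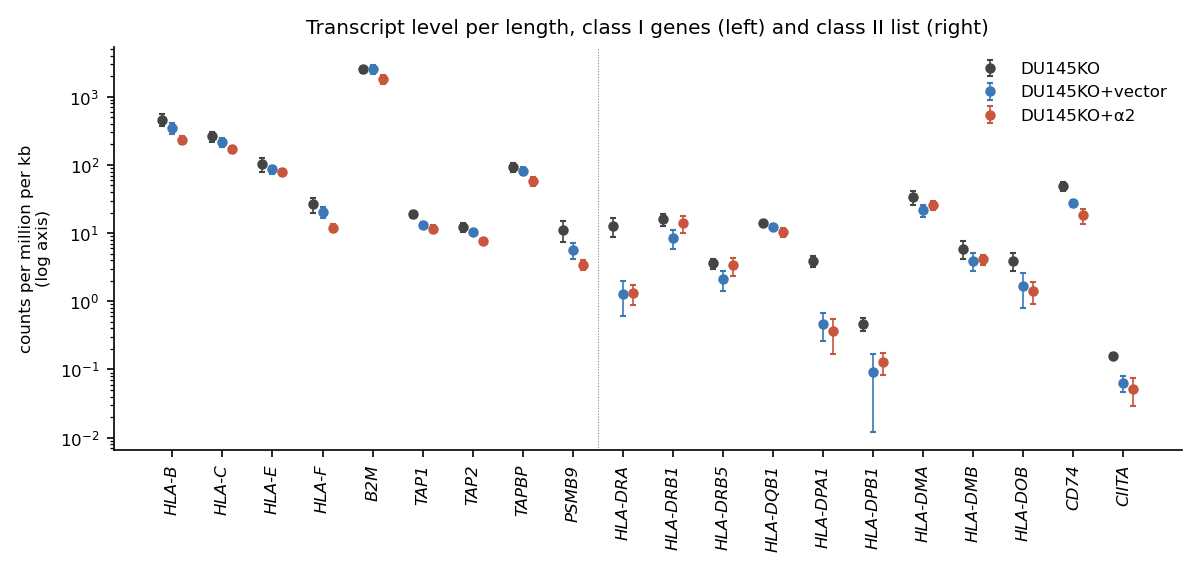
Transcript level per length (TMM-normalized CPM per kb of transcript, log axis) of the 9 class I and peptide loading genes and of the class II list genes that passed the filter; points are means of 4 samples and bars are the SD. B2M stands highest in every line, at 2525 in DU145KO, and PSMB9 is the lowest of the 9.

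DU145KO+α2 was first compared with DU145KO+vector. These lines differ by the α2 cDNA and are also separate stable transfections, and these differences cannot be told apart. Class I transcripts were lower in the α2 positive cells: HLA-B, HLA-F, B2M, TAP2 and TAPBP fell, none of the 9 rose (also 0 in each comparison at an unadjusted p below 0.05, by the DESeq2 Wald test and by voom with limma), and the 9 log2 fold changes were all negative with a median of -0.48. Over all genes tested 5.95% were called lower and 5.96% higher, with a median of -0.01. Called means an adjusted p below 0.05 in edgeR's quasi-likelihood test. None of the 5 passed a fold change of 2 as well, which 0.821% of all genes did in the lower direction. In bulk RNA, less RNA per cell and fewer expressing cells cannot be told apart.

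HLA-B, a classical heavy chain, was at 399, 392, 360 and 298 CPM in the 4 DU145KO+α2 samples and at 606, 601, 515 and 412 in DU145KO+vector, with no overlap. Its log2 fold change was -0.56 (SE 0.15, adjusted p = 0.0217 by edgeR). HLA-F, a non-classical heavy chain found largely inside the cell, was at 19.4, 20.5, 15.0 and 16.2 CPM against 33.8, 34.8, 30.3 and 22.0. All 4 DU145KO+α2 samples lay below all 4 of the vector line, with a log2 fold change of -0.76 (SE 0.18, adjusted p = 0.0118). Of the HLA-F transcript, 17.4% overlaps exons of HLA-F-AS1 on the opposite strand, and whether the counting used strand is not given in the sources used here.

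The other heavy chains differed less. HLA-C was at 287, 281, 258 and 216 CPM in DU145KO+α2 and at 368, 359, 334 and 264 in DU145KO+vector. Only the lowest vector sample reached into the range of the α2 samples, and the log2 fold change of -0.35 (SE 0.13) was not called (adjusted p = 0.0951), but was with the block (adjusted p = 4.87e-04) or without replicate 4 of DU145KO+vector (adjusted p = 0.0330). HLA-E, which presents leader peptides of other class I chains to natural killer cell receptors, was at 230.3, 192, 189.9 and 188 CPM against 262, 220.0, 198 and 195. Its log2 fold change of -0.13 had a 95% interval of -0.43 to 0.17 and was not called with or without the block (adjusted p = 0.133 and 0.632). It moved to -0.02 without replicate 1 of DU145KO+vector and to -0.20 without replicate 1 of DU145KO+α2.

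B2M, without which most heavy chains do not reach the surface, was at 2079, 1524, 1696 and 1510.0 CPM in DU145KO+α2 and at 2785, 2369, 2464 and 1981 in DU145KO+vector. Replicate 1 of the α2 line lay above replicate 4 of the vector line, so the groups overlapped by 1 sample, and the log2 fold change was -0.50 (SE 0.12, adjusted p = 0.0151). TAPBP was at 185, 249, 189 and 181 CPM against 271, 334, 266 and 252. The α2 samples were all lower, at a log2 fold change of -0.48 (SE 0.12, adjusted p = 0.0188).

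Of the peptide pump, TAP2 was at 40.8, 45.7, 43.5 and 43.4 CPM in DU145KO+α2 and at 61.0, 57.3, 59.5 and 55.0 in DU145KO+vector, with the smallest spread relative to its mean among the members, and a log2 fold change of -0.43 (SE 0.09, adjusted p = 0.00617). TAP1 was at 27.8, 29.4, 29.2 and 37.3 CPM against 32.5, 39.0, 34.3 and 37.0. Replicate 4 of the α2 line lay within the vector samples, and the log2 fold change of -0.21 (95% interval -0.44 to 0.02) was not called with or without the block (adjusted p = 0.158 and 0.255). PSMB9 gave few reads, with 3.17, 4.10, 2.95 and 3.82 CPM (50 to 82 counts) against 7.09, 6.68, 5.35 and 3.72. Its groups overlapped at the lowest vector sample, and the log2 fold change of -0.70 (SE 0.24) was not called in the fit of all 12 samples (adjusted p = 0.0767) and was with the block (adjusted p = 0.0147). It was also called by the DESeq2 Wald test (adjusted p = 0.0416), in a fit of the compared lines only (0.0378), and without replicate 1 of DU145KO (0.0273) or replicate 4 of DU145KO+vector (0.0307).

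HLA-B, HLA-F, TAP2 and TAPBP, 4 of the 9 members, did not overlap between the lines in the lower direction, against 8.8% of all genes. With the block 7 members were called, all lower, while 3911 of the 14732 genes tested were called in either direction. Leaving out single samples moved the count of members called without the block between 2 and 7. HLA-F and TAP2 were called in every case, whereas the calls were lost for HLA-B without replicate 3 or 4 of DU145KO+α2 or replicate 1 or 2 of DU145KO+vector (adjusted p = 0.0597 to 0.0694), for B2M without replicate 4 of DU145KO+α2 or replicate 1 of DU145KO+vector, and for TAPBP without replicate 1, 3 or 4 of DU145KO+α2 or replicate 2 of DU145KO+vector.

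**Figure D2:**
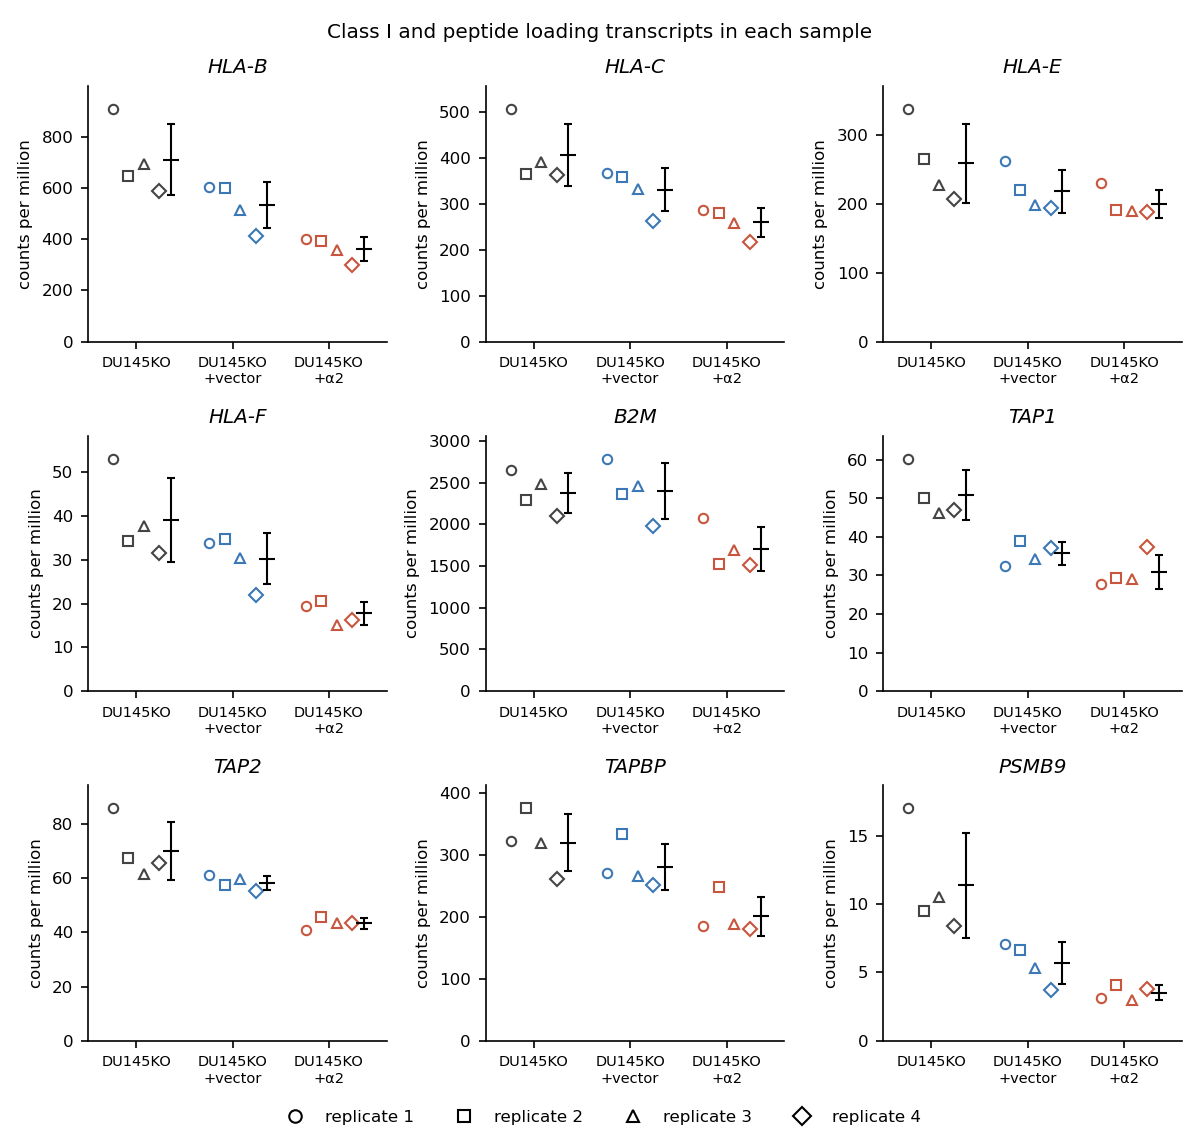
TMM-normalized CPM of the 9 genes in each of the 12 samples (linear axes from 0, symbols mark the replicate number), with the mean and SD of each line in black. DU145KO+α2 has the lowest mean in every panel, and replicate 1 of DU145KO is the highest sample of its line in 8 of 9.

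DU145KO+α2 was then compared with DU145KO, the edited line without any vector. Here 8 of the 9 genes fell and none rose, with a median log2 fold change of -0.69, whereas 5.08% of all genes were called lower and 3.09% higher. These 8 did not overlap between the lines, which held for 7.43% of all genes in that direction. Only HLA-F and PSMB9 changed by more than a factor of 2, as did 1.67% of all genes in the lower direction. The comparison shares the DU145KO+α2 samples with the previous one, so the values are not independent of it.

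PSMB9 changed most. It was at 17.0, 9.53, 10.5 and 8.43 CPM in DU145KO, with replicate 1 far above the others, and fell 3.22-fold to DU145KO+α2 (log2 fold change -1.69, SE 0.23, adjusted p = 3.60e-04). HLA-F was at 53.0, 34.2, 37.6 and 31.6 CPM in DU145KO and fell 2.19-fold (log2 fold change -1.13, SE 0.17). HLA-B was at 908, 648, 696 and 588 CPM in DU145KO, where even the lowest sample lay above the highest DU145KO+α2 sample, and fell 1.96-fold (log2 fold change -0.97, SE 0.15). HLA-C, at 507, 365, 392 and 363 CPM in DU145KO, fell by 0.64 on the log2 scale (SE 0.13).

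The pump and the loading bridge moved by similar amounts in this comparison. TAP1 was at 60.2, 50.2, 46.1 and 46.8 CPM in DU145KO and had a log2 fold change of -0.72 (SE 0.11). TAP2 was at 85.6, 67.3, 61.3 and 65.5 CPM and had a log2 fold change of -0.69 (SE 0.09). TAPBP was at 322, 375, 319 and 262 CPM and had a log2 fold change of -0.67 (SE 0.12). The adjusted p of these genes, HLA-B, HLA-C and HLA-F lay between 2.32e-04 for TAP2 and 0.00494 for HLA-C (edgeR). Of the TAP1 transcript, 13.7% overlaps exons of PSMB8-AS1 on the opposite strand.

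B2M was at 2651, 2292, 2485 and 2096 CPM in DU145KO, all above the highest DU145KO+α2 sample of 2079, with a log2 fold change of -0.48 (SE 0.12, adjusted p = 0.0226). This call was lost without replicate 1 or 3 of DU145KO or replicate 2, 3 or 4 of DU145KO+α2 (adjusted p = 0.0521 to 0.0819). HLA-E was at 338, 265, 227 and 207 CPM in DU145KO, and its log2 fold change of -0.37 (95% interval -0.67 to -0.08) was not called (adjusted p = 0.124), but was with the block (adjusted p = 1.29e-04) or without replicate 4 of DU145KO (adjusted p = 0.0440). Without replicate 1 of DU145KO it was -0.21. With the block all 9 members were called lower, while 3286 of the 14732 genes tested were called in either direction. Without replicate 1 of DU145KO, the sample with the highest values, 7 members were called.

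DU145KO+vector and DU145KO differ by the empty vector, by growth in geneticin and by the making of a stable line, which cannot be told apart. Only TAP1 and PSMB9 of the 9 were called here, both lower in the vector line, against 1.84% of all genes called lower and 0.496% higher. The median of the 9 was -0.30, with 8 negative values. TAP1, TAP2 and PSMB9 did not overlap between these lines, compared with 4.8% of all genes, and no member was called with a fold change above 2, compared with 0.808%.

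PSMB9 fell 1.98-fold from DU145KO to DU145KO+vector (log2 fold change -0.99, SE 0.23, adjusted p = 0.0323 by edgeR), and TAP1 fell 1.42-fold (log2 fold change -0.51, SE 0.11, adjusted p = 0.0183). The PSMB9 call was lost when replicate 1, 2 or 3 of DU145KO or replicate 2, 3 or 4 of DU145KO+vector was left out (adjusted p = 0.0513 to 0.114), and that of TAP1 without replicate 1 or 2 of DU145KO or replicate 3 of DU145KO+vector. With the block 8 members were called lower, with log2 fold changes from -0.19 for TAPBP to -0.98 for PSMB9. In that fit 1980 of the 14732 genes tested were called in either direction. HLA-B, at -0.41 in either fit, had an adjusted p of 0.181 without and 2.85e-04 with the block. Without replicate 1 of DU145KO, the values not called without the block were smaller by over 1.5 times for HLA-B (-0.27), HLA-C (-0.17), HLA-E (-0.09), HLA-F (-0.18) and TAP2 (-0.15), as was HLA-F without replicate 4 of DU145KO+vector (-0.24) and TAPBP without replicate 2 of DU145KO (-0.10). B2M was not called with the block either, at 0.006 on the log2 scale (SE 0.06, adjusted p = 0.962 by edgeR). Without the block it was at 0.01 with a 95% interval of -0.25 to 0.27 (adjusted p = 0.982).

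Class II genes were lower mainly in both transfected lines against DU145KO. The list held 17 genes, of which 11 passed the filter on low counts, and this filter could be passed through the higher line alone. Against DU145KO, 7 of the 11 fell in DU145KO+α2 (median log2 fold change -1.42, 6 by more than a factor of 2) and 5 of the 11 in DU145KO+vector (median -0.92, 4 by more than a factor of 2), rising to 9 and 10 with the block. Over all genes 5.08% and 1.84% were called lower in these comparisons, and 1.67% and 0.808% with a fold change above 2. With the block 3286 and 1980 of 14732 genes were called in either direction. Between the 2 transfected lines only CD74 was called, lower in DU145KO+α2, against 5.95% of all genes called lower, and the class II median was 0.00.

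HLA-DRA, the constant chain of HLA-DR, had 354, 225, 206 and 228 counts in DU145KO, 36, 36, 17 and 23 in the α2 line and 49, 25, 20 and 11 in the vector line. The transfected lines lay far below DU145KO and across each other. The fall was 9.65-fold in each (log2 fold change -3.27 with an SE of 0.33 in both, adjusted p = 3.20e-05 in DU145KO+α2 and 1.38e-04 in DU145KO+vector), and the difference between the transfected lines was 0.00 with a 95% interval of -0.82 to 0.82. HLA-DPA1, with 89 to 124 counts in DU145KO and 4 to 21 in the other lines, fell 10.3-fold in DU145KO+α2 and 8.31-fold in DU145KO+vector. Its partner HLA-DPB1 had 24 to 37 counts in DU145KO and no more than 15 elsewhere, with none in replicate 4 of DU145KO+vector, where a count of 0 allows up to 0.21 CPM.

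CIITA, the class II transactivator, was at 2.91, 2.32, 2.46 and 2.46 CPM in DU145KO, at 0.31, 0.85, 1.12 and 1.02 in the α2 line and at 1.16, 1.29, 0.81 and 0.76 in the vector line. Its log2 fold change against DU145KO was -1.61 (SE 0.29) and -1.33 (SE 0.29), and that between the transfected lines was -0.27 (95% interval -0.96 to 0.41), which was not called. CD74, the invariant chain that occupies the class II groove before peptide loading, was at 99.3, 72.6, 74.2 and 76.4 CPM in DU145KO, 34.7, 38.7, 23.3 and 24.0 in the α2 line and 48.3, 51.1, 38.5 and 42.3 in the vector line. It fell in all 3 comparisons, by 1.42, 0.84 and 0.57 on the log2 scale, the last between the transfected lines (adjusted p = 0.0369) and not without replicate 3 of DU145KO+α2 or replicate 2 or 4 of DU145KO+vector.

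HLA-DOB, part of the regulator of peptide exchange HLA-DO, fell from 5.16 ± 1.52 CPM in DU145KO to 1.88 ± 0.651 in DU145KO+α2, and HLA-DQB1 from 22.4 ± 2.1 to 16.6 ± 2.71. In DU145KO+vector these were 2.24 ± 1.2 and 19.7 ± 2.04, neither called without the block. With the block HLA-DOB was called and HLA-DQB1 was not (adjusted p = 5.12e-04 and 0.117 by edgeR). HLA-DMA and HLA-DMB, the peptide exchange factor, were at 36.9 ± 8.27 and 7.95 ± 2.32 CPM in DU145KO, 27.8 ± 4.22 and 5.58 ± 0.959 in the α2 line and 23.6 ± 4.64 and 5.30 ± 1.49 in the vector line, and were called lower than in DU145KO only with the block. HLA-DRB1 was at 19.6 ± 3.90 CPM in DU145KO, 17.2 ± 4.96 in the α2 line and 10.3 ± 3.26 in the vector line, and its near copy HLA-DRB5 at 4.5 ± 0.751, 4.22 ± 1.25 and 2.63 ± 0.873. With the block these were the class II genes higher in DU145KO+α2 than in DU145KO+vector, together with HLA-DMA (adjusted p = 6.47e-06, 0.00442 and 0.0252). HLA-DRB1 and HLA-DRB5 were called lower in DU145KO+vector than in DU145KO only with the block (adjusted p = 9.96e-07 and 0.00338 by edgeR). Of the 6 list genes below the filter, HLA-DRB3 and HLA-DRB4 had no count in any sample, and HLA-DQA1, HLA-DQA2, HLA-DQB2 and HLA-DOA had at most 13, 2, 3 and 8.

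**Figure D3:**
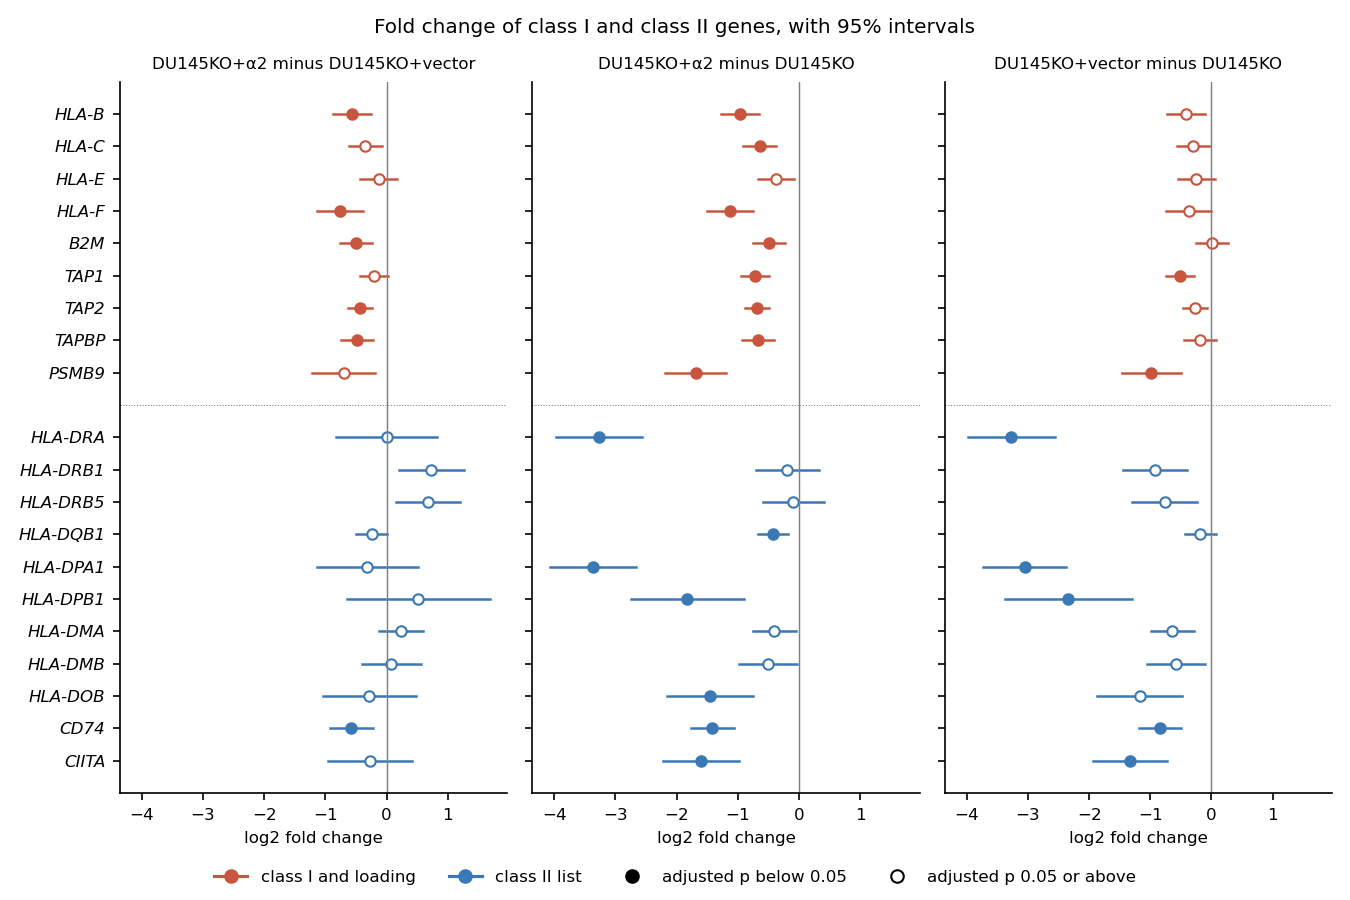
Log2 fold change (edgeR, with 95% intervals) of the 9 class I and peptide loading genes (red, top) and the 11 tested class II list genes (blue, bottom) in the 3 comparisons; filled points have an adjusted p below 0.05. Class I genes lie left of 0 by a median of 0.48 in the first panel, where class II genes scatter around 0, and HLA-DRA and HLA-DPA1 lie beyond -3 in the other panels.

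HLA-B and B2M were then set against HLA-DRA within each sample, by the log2 ratio of their reads (0.5 added to each count). The HLA-B ratio was 5.27, 5.56, 5.78 and 5.46 in DU145KO, 7.46, 7.75, 8.44 and 7.64 in the α2 line, and 7.79, 8.36, 8.77 and 9.02 in the vector line. Both transfected lines lay wholly above DU145KO, with differences of 2.31 and 2.97. The B2M ratio differed from DU145KO by 2.78 in DU145KO+α2 and by 3.38 in DU145KO+vector. These differences describe HLA-DRA and not class II as a whole, because HLA-DRA is among the class II genes that fell most and was chosen with earlier results of these data known. Other class II genes differed from DU145KO by less than HLA-B did in DU145KO+α2, such as HLA-DRB1 with a log2 fold change of -0.19, HLA-DRB5 with -0.09, HLA-DMA with -0.40 and HLA-DQB1 with -0.43.

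Between the transfected lines the difference of DU145KO+α2 from DU145KO+vector was -0.66 for the HLA-B ratio (exact permutation test of unpaired samples, two-sided, p = 0.114, adjusted over 6 tests 0.137) and -0.61 for the B2M ratio (exact permutation p = 0.171). The samples of the lines overlapped, but within same-numbered pairs the HLA-B ratio was lower in DU145KO+α2 in 4 of 4 (differences of -0.33, -0.61, -0.33 and -1.39), and the B2M ratio likewise (-0.15, -0.63, -0.35 and -1.31). The exact sign-flip test over the pairs gave p = 0.125 for each, the smallest that 4 pairs allow, so this design could not call the difference when paired.

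**Figure D4:**
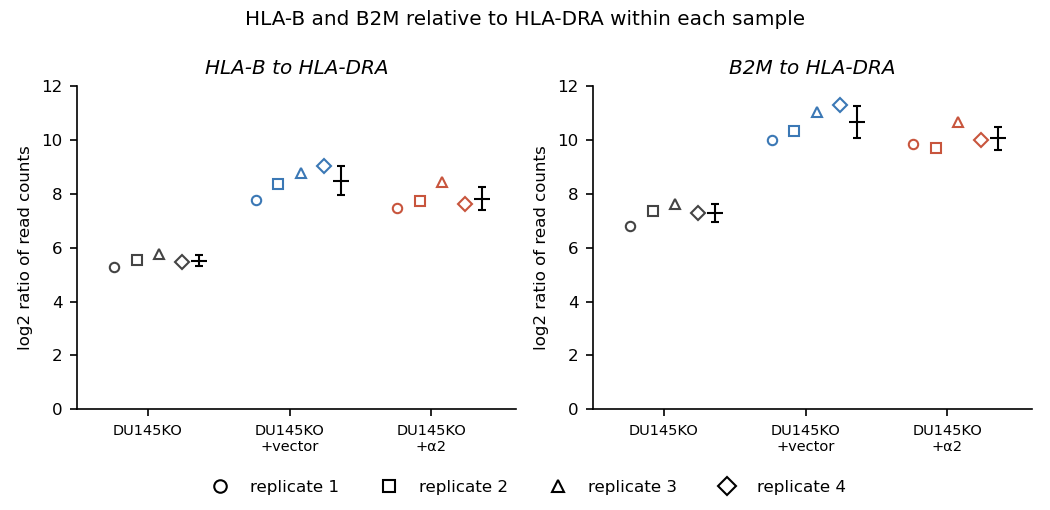
Log2 ratio of HLA-B (left) or B2M (right) read counts to HLA-DRA read counts within each sample, with the mean and SD of each line in black. The 8 samples of the transfected lines lie above all 4 of DU145KO in both panels, and the transfected lines overlap.

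The rest of the class I pathway was described with a list of 17 genes, 15 of them tested. DU145KO+α2 had 6 called lower than in DU145KO+vector (median log2 fold change -0.31) and 8 called lower than in DU145KO (median -0.38), and DU145KO+vector had 2 called lower than in DU145KO (median -0.11). No gene of the list was called higher, and with the block the counts were 11, 12 and 5. Over all genes 5.95%, 5.08% and 1.84% were called lower without the block in these comparisons. ERAP1 and ERAP2, which trim peptides in the endoplasmic reticulum, were called in both comparisons of DU145KO+α2. ERAP1 was at 100.5 ± 13.0 CPM in DU145KO, 72.9 ± 5.36 in DU145KO+vector and 42.9 ± 2.25 in DU145KO+α2, and was also called for the vector line, with log2 fold changes of -0.77 for DU145KO+α2 against the vector line, -1.23 against DU145KO, and -0.46 for the vector line against DU145KO. ERAP2 was at 94.8 ± 20.1, 65.8 ± 4.82 and 36.0 ± 5.83 CPM in the same order, with log2 fold changes of -0.87 and -1.40 for DU145KO+α2, and -0.53 for the vector line, which was not called without the block (adjusted p = 0.0571) and was with it.

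The other subunits of the immunoproteasome followed PSMB9 in part. PSMB10 was at 13.5 ± 2.79 CPM in DU145KO, 11.9 ± 0.656 in DU145KO+vector and 6.62 ± 0.832 in DU145KO+α2, lower in the α2 line than in either of the others (log2 fold change -0.85 and -1.02). PSMB8 was at 50.2 ± 9.79, 37.1 ± 5.00 and 28.9 ± 3.53 CPM and was called only between DU145KO+α2 and DU145KO (-0.80), although with the block also in the other comparisons. PSME1, of the proteasome activator, was below its vector line level in DU145KO+α2 by 0.30 on the log2 scale. By contrast, of 14 constitutive proteasome subunits only PSMB7 was called by edgeR, at -0.29 between DU145KO+α2 and DU145KO+vector, and the medians of that list were -0.07, 0.09 and 0.16. With the block 4 of the 14 were called higher in DU145KO+α2 and 7 in DU145KO+vector than in DU145KO, and 2 lower in DU145KO+α2 than in the vector line.

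Among the remaining genes, the pseudogene HLA-H was called at -0.60 between DU145KO+α2 and DU145KO, where shared reads cannot be told apart. With the block edgeR also called HLA-H lower in DU145KO+α2 than in the vector line (adjusted p = 0.00286). The same held for the vector line against DU145KO (adjusted p = 0.0328 by edgeR). TAPBPL, a tapasin relative that edits peptides, was lower in DU145KO+α2 by 0.52 against the vector line and by 0.38 against DU145KO on the log2 scale. CANX, the chaperone calnexin, was lower than in DU145KO by 0.40 in DU145KO+α2 and by 0.33 in DU145KO+vector. Of 12 class I-like genes, such as the stress ligands MICA and MICB, 10 were tested and none was called in any of the 3 comparisons by edgeR without the block (2, 3 and 3 at an unadjusted p below 0.05, 0, 0 and 1 by the DESeq2 Wald test, 0 by voom with limma), while with the block 2, 3 and 2 were.

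NLRC5, the class I transactivator, was at 21.8 to 25.1 CPM in DU145KO, 19.5 to 25.0 in DU145KO+vector and 12.4 to 15.1 in DU145KO+α2. It fell in DU145KO+α2 by 0.71 on the log2 scale against the vector line (SE 0.10, adjusted p = 2.67e-04 by edgeR) and by 0.74 against DU145KO, and the difference of the vector line from DU145KO was -0.03 (95% interval -0.24 to 0.18). IRF1, an interferon-induced factor of class I promoters, was lower in DU145KO+α2 than in DU145KO by 0.55. JAK2, a kinase of the interferon gamma receptor, was lower than in the vector line by 0.43. These were the only calls among 26 regulators (2, 2 and 0 by edgeR, none higher, with 2 lower at an unadjusted p below 0.05 in the last comparison and 0 there by DESeq2 and by voom), with list medians of -0.02, -0.07 and -0.03. With the block 7, 5 and 3 were called lower and none higher. Over all genes 5.95%, 5.08% and 1.84% were called lower without the block in these comparisons. With it 3911, 3286 and 1980 of 14732 genes were called in either direction.

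**Figure D5:**
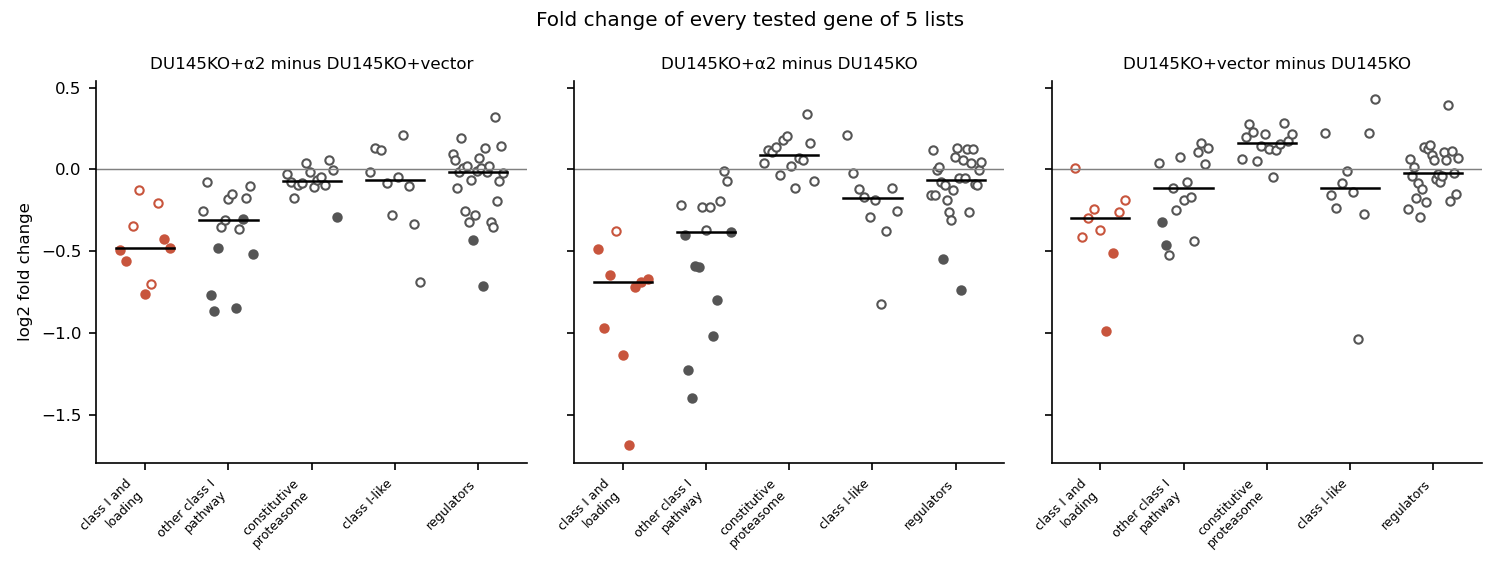
Log2 fold change of every tested gene of 5 lists in the 3 comparisons; filled points have an adjusted p below 0.05 and the black line is the list's median. The class I and loading genes and the other class I pathway genes lie mostly below 0 in the first 2 panels, and the constitutive proteasome subunits have medians of -0.07 and 0.09 there.

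The 9 genes varied together from sample to sample. Over the 12 samples the Pearson r of their log2 CPM was between 0.47 (B2M with TAP1) and 0.99 (HLA-B with HLA-C) for the 36 pairs, with a median of 0.82, and after each line's mean was removed it was between -0.27 and 0.98, positive in 33 pairs, with a median of 0.61. Samples of a line, replicate number and library depth are shared by these points, so the values only describe them. Of 14723 other tested genes, those most like the mean of the 9 were APOL1 (r = 0.98 over 12 samples), PSMB8 (0.97), CASP4, an inflammatory caspase (0.97), EPB41L4A (0.96) and GIPC3 (0.96). APOL1, which encodes apolipoprotein L1, was at 10.3 ± 4.10 CPM in DU145KO, 5.04 ± 1.35 in DU145KO+vector and 2.16 ± 0.543 in DU145KO+α2.

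Some epithelial markers were also lower in the transfected lines. The summed level of the 6 epithelial markers was 1237 to 1613 CPM in DU145KO, 1157 to 1400.0 in DU145KO+vector and 868 to 1166 in DU145KO+α2. Of the 6, CDH1 and CLDN7 fell from DU145KO+vector to DU145KO+α2, KRT18, EPCAM, CDH1 and CLDN7 from DU145KO to DU145KO+α2, and EPCAM and CLDN7 from DU145KO to DU145KO+vector. With the block 4, 5 and 2 of the 6 were called lower in these comparisons, in this order. Over all genes 5.95%, 5.08% and 1.84% were called lower without the block. KRT8 was called only with the block. KRT19 was called in neither fit, with log2 fold changes of -0.176, -0.061 and 0.115 without the block. The part of the epithelial markers in the class I values was not tested. The summed leukocyte markers were at 3.74 to 5.99 CPM over all 12 samples and the stromal markers at 8.61 to 13.2. Only 3 of the 8 leukocyte and 2 of the 6 stromal markers passed the filter on low counts, and none of those was called. The others could not be called.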

How the data were processed

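The authors sequenced stranded mRNA libraries (TruSeq, single-end) with bcl2fastq 1.8.4, aligned the reads to hg38 with TopHat2 2.1.0 and counted uniquely aligned reads per gene with Subread 1.5.0. The deposited counts are whole reads per gene without normalization and served for all tests. The deposited RPKM values, which the authors made after TMM normalization, served only to check the gene lengths behind them.

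The tests were run on counts with edgeR 4.0.16 in R 4.3.3 (filterByExpr with a minimum count of 10, TMM, robust quasi-likelihood test, 12 samples, 1 factor for the line), adjusted by the Benjamini-Hochberg method over 14732 genes and tested on simulated data. All tests were two-sided. limma 3.58.1 (voom) and DESeq2 1.42.0 served as alternatives, and scipy 1.17.1 for exact permutation tests. Positions and exons come from GENCODE 44 and promoters from RefSeq. Depth was 13948734 to 19988111 counts per sample. Intervals of fold changes come from the fit and include the spread between samples, whereas floors of 3 counts cover counting error only.

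Groups come from the sample labels. Samples with the same replicate number correlated in their deviations from the line means in all 12 pairs (r = 0.135 to 0.554), and those with different numbers at -0.29 to 0.149. The numbers were therefore taken to pair the samples, although the methods of the study state no pairing. The ranges overlapped: the lowest same-numbered value was replicate 2 of DU145KO with replicate 2 of DU145KO+α2. The highest other value was replicate 3 of DU145KO with replicate 2 of DU145KO+vector. The study gives the samples as independent biological replicates, but of 1 line each.

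The members and gene lists were chosen with earlier results of these data known, so their counts are not independent evidence. Genes named are ITGA2, the 9 members, all class II list genes with a count, the called genes of the other lists and the 5 most alike genes. Some list genes are not reported here. Alternatives were other scalings, tests and filters, a fit of the compared lines only, the block, a fold change above 2 and leaving out each sample. Chosen after seeing the data were the DESeq2 test with the block and leaving out all samples numbered 1.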

Additional observations from a re-analysis of the deposited data

Results flagged for a closer look

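In 60 sets of 4 samples (20 genes in 3 lines), 7 held a sample far from the others by Dixon's criterion, the gap to the nearest sample divided by the whole range being above the 95% critical value for 4 samples, while chance gives about 1 in 20, or 3. Among the class I genes, replicate 1 of DU145KO+α2 stood apart for HLA-E (230.3 CPM against 188 to 192, a gap of 0.917 of the range). Replicate 4 of DU145KO+α2 stood apart for TAP1 (37.3 against 27.8 to 29.4, 0.83), and replicate 2 of DU145KO+α2 for TAPBP (249 against 181 to 189, 0.884). The other 4 were all high values of replicate 1 of DU145KO in class II genes: HLA-DRA (23.4 CPM against 12.7 to 13.8, 0.899), HLA-DQB1 (25.5 against 21.2 to 21.6, 0.9), HLA-DMA (49.2 against 32.1 to 33.6, 0.915) and CD74 (99.3 against 72.6 to 76.4, 0.857). The same sample was the highest of its line for 8 of the 9 class I and loading genes.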

How the results depend on the processing

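Depth limits PSMB9 (50 to 257 counts) and most class II genes, and the 9 members are too few and too alike to count as independent. Below, counts are given for DU145KO+α2 against DU145KO+vector, DU145KO+α2 against DU145KO and DU145KO+vector against DU145KO, in this order, and the causes of the changes were not tested. With the replicate block the genes called were 3911, 3286 and 1980 instead of 1754, 1203 and 344, the members 7, 9 and 8 instead of 5, 8 and 2, and the class II genes 5 (3 of them higher), 9 and 10 instead of 1, 7 and 5. The DESeq2 Wald test with the block gave 3248, 2680 and 1541 genes, 7, 9 and 8 members and 4, 9 and 10 class II genes, and without the block it gave 587 genes for DU145KO+vector against DU145KO and 2, 7 and 8 class II genes. A required fold change above 2 left 325, 309 and 123 genes, 0, 2 and 0 members and 0, 6 and 4 class II genes. No filter on low counts left 0 class II genes in the first comparison, a filter of 10 counts in every sample left 1, 4 and 2 because fewer were tested, and a fit of the compared lines only gave 1 member in the third. Without all samples numbered 1 the third comparison had 219 genes and 0 members, and the first 0 class II genes, while 4 and 7 members were called in the others.

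Leaving out each sample in turn gave 1229 to 1841, 837 to 1197 and 160 to 528 genes, 2 to 7, 7 to 9 and 0 to 2 members, and 0 to 2, 6 to 7 and 2 to 8 class II genes. The third comparison had 0 members called without replicate 1 or 2 of DU145KO or replicate 3 of DU145KO+vector, and the first 2 without replicate 4 of DU145KO+α2 and 3 without its replicate 3 or replicate 1 or 2 of DU145KO+vector. The difference in the HLA-B to HLA-DRA ratio was then -0.90 to -0.48, 2.1 to 2.43 and 2.79 to 3.20, and that of B2M -0.83 to -0.40, 2.57 to 2.89 and 3.18 to 3.61. Adding 2 or nothing to the counts changed no call of the ratios, and the sign-flip test that pairs the replicate numbers cannot pass 0.05 with 4 pairs. Of the members, only B2M in DU145KO+vector against DU145KO changed sign, from 0.01 to between -0.067 and 0.093 over the samples left out, being -0.006, -0.045, -0.067 and -0.001 without replicate 2 or 4 of DU145KO or replicate 1 or 3 of DU145KO+vector, and to -0.010 without all samples numbered 1.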

Other observations

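Genes that share the MHC with the class I and class II loci were examined as a description. Of 105 other tested genes of the MHC window of chromosome 6, 0 were called lower (8 at an unadjusted p below 0.05, 0 by the DESeq2 Wald test and 0 by voom with limma) and 3 higher in DU145KO+α2 than in DU145KO+vector by edgeR's quasi-likelihood test, with a median log2 fold change of -0.01. DU145KO+α2 had 8 called lower and 1 higher than in DU145KO, and DU145KO+vector had 1 lower and 0 higher (3 at an unadjusted p below 0.05, 0 by DESeq2 and 0 by voom), with medians of 0.00 and -0.04. In the last comparison 12 were lower at an unadjusted p below 0.05 and 4 by the DESeq2 Wald test. On chromosome 6 outside this window 35 of 568 genes were called lower and 36 higher in the first of these comparisons. The second had 32 lower and 14 higher, and the third 14 lower and 0 higher. Over all genes 5.95%, 5.08% and 1.84% were called lower in the same order.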
